A study of Mus musculus with 24 samples.

Results

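The 43 genes described here encode proteins of synaptic vesicles and of the machinery that releases transmitter from them, and the question was which members of each gene family the mRNA of 4 brain cell types held. They formed a list of gene names that was chosen with earlier results of these data known. All 43 were found by symbol among the 23871 genes of the PAPERCLIP tables, and all 43 by Ensembl identifier among the 47069 genes of the RNA-seq tables. By role they were the fusion proteins Snap25, Stx1a, Vamp1 and Vamp2; the vesicle proteins Syn1, Syn2, Syn3, Syp, Synpr, Sv2a, Sv2b, Sv2c, Syngr1 and Syngr3; the synaptotagmins Syt1, Syt2, Syt3, Syt4, Syt5, Syt6, Syt7, Syt9, Syt10, Syt11, Syt12, Syt13 and Syt17; the complexins Cplx1, Cplx2 and Cplx3; the active zone and priming proteins Rims1, Rims2, Rims3, Unc13a, Unc13b, Unc13c, Bsn and Pclo; and the Rab3 proteins Rab3a, Rab3b and Rab3c with the effector Rph3a and the calcium sensor Doc2b.

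The mouse series held 24 libraries. In cTag-PAPERCLIP, Cre driven by a cell type promoter turns on Ctag-PABP, a poly(A)-binding protein fused to GFP, and the mRNA 3′ ends crosslinked to that protein are recovered from unsorted tissue with anti-GFP antibodies. Libraries from untreated Ctag-PABP mice came from Cx3cr1-Cre whole brain (microglia), Gfap-Cre cortex (astrocytes), Camk2a-Cre cortex (excitatory neurons) and Gad2-Cre cortex (inhibitory neurons), with 2 libraries each. Because Cre recombination is permanent, the tag marks every cell in which the promoter was ever active, and the labels give neither strain nor age for the tagged mice. Further Cx3cr1-Cre; Ctag-PABP whole brain libraries followed LPS (bacterial lipopolysaccharide, 3 libraries) or PBS (saline, 3 libraries), and 1 PAPERCLIP library was labelled CL57/B6J liver, whose label names neither Cre nor tag. RNA-seq was made of microglia taken with CD11b beads from adult wildtype C57BL/6 mice after 4 daily injections of 1 mg/kg LPS or of PBS (3 libraries each, 2 brains per tube), and E18.5 cortex of Ptbp2-KO mice (3 libraries), for which no control cortex was analysed here.

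Vesicle release rests on a small set of partners. Snap25 and syntaxin on the plasma membrane zip together with synaptobrevin (Vamp) on the vesicle, Munc13 proteins and RIM proteins prepare the vesicle at the active zone, complexins hold and help the assembled complex, and synaptotagmins sense the calcium that triggers fusion. Most of these proteins come as paralogs, that is, closely related genes of a family, and neurons of different kinds are known to use different ones.

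The libraries bore the genes of their labels. Tagged cortex libraries held 630475 to 2005627 counts and the untreated Cx3cr1 libraries 154959 and 133456, so low members were measured least well in microglia. The driver gene Camk2a stood at 2063 and 2149 normalised CPM in Camk2a libraries and 518 and 272 in Gad2 libraries, Gad2 at 798 and 938 in Gad2 libraries and at most 19.0 elsewhere, Gfap at 597 and 641 in Gfap libraries and at most 3.08 elsewhere, and Cx3cr1 at 923 and 1747 in Cx3cr1 libraries and at most 3.94 elsewhere. Normalised CPM are CPM, counts scaled to a common library total, after TMM scaling of that total. The 10 pan-neuronal markers took 0.0873% and 0.0771% of counts in the Gfap libraries, 0.482% and 0.469% in the Camk2a libraries and 0.409% and 0.370% in the Gad2 libraries, so neuronal markers were present in the Gfap libraries too. The 10 oligodendrocyte markers differed between the Gfap libraries, at 0.136% and 0.979%. The targeted gene Ptbp2 had 36.7, 28.5 and 26.3 CPM in the Ptbp2-KO cortex, and with no control cortex this does not check the label.

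The 43 genes together took 0.114% and 0.109% of counts in the Cx3cr1 libraries, 0.432% and 0.330% in the Gfap libraries, 2.30% and 2.20% in the Camk2a libraries and 2.59% and 2.65% in the Gad2 libraries. Snap25, the most abundant of them in neurons, lies at chr2:136713439-136782428 (GRCm38, the assembly that mm10 names, as for all positions below) and had 378 and 323 normalised CPM in Cx3cr1 libraries, 1142 and 523 in Gfap libraries, 7431 and 6630 in Camk2a libraries and 9150 and 8972 in Gad2 libraries. The 4 groups did not overlap, with both neuronal groups far above both glial ones. Tests across groups used edgeR's quasi-likelihood test on all 8 libraries with Benjamini-Hochberg adjustment over the 9421 genes tested, at an adjusted p of 0.05, and 35 of the 43 members entered it. The 8 that were too low to test were Sv2c, Syt6, Syt9, Syt10, Syt12, Syt17, Rims1 and Rims3. Nothing in the labels says that these libraries came from separate animals, so p-values measure their spread only, and that may be technical, while in tagged tissue fewer cells of a type and less RNA per cell cannot be told apart.

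**Figure D1:**
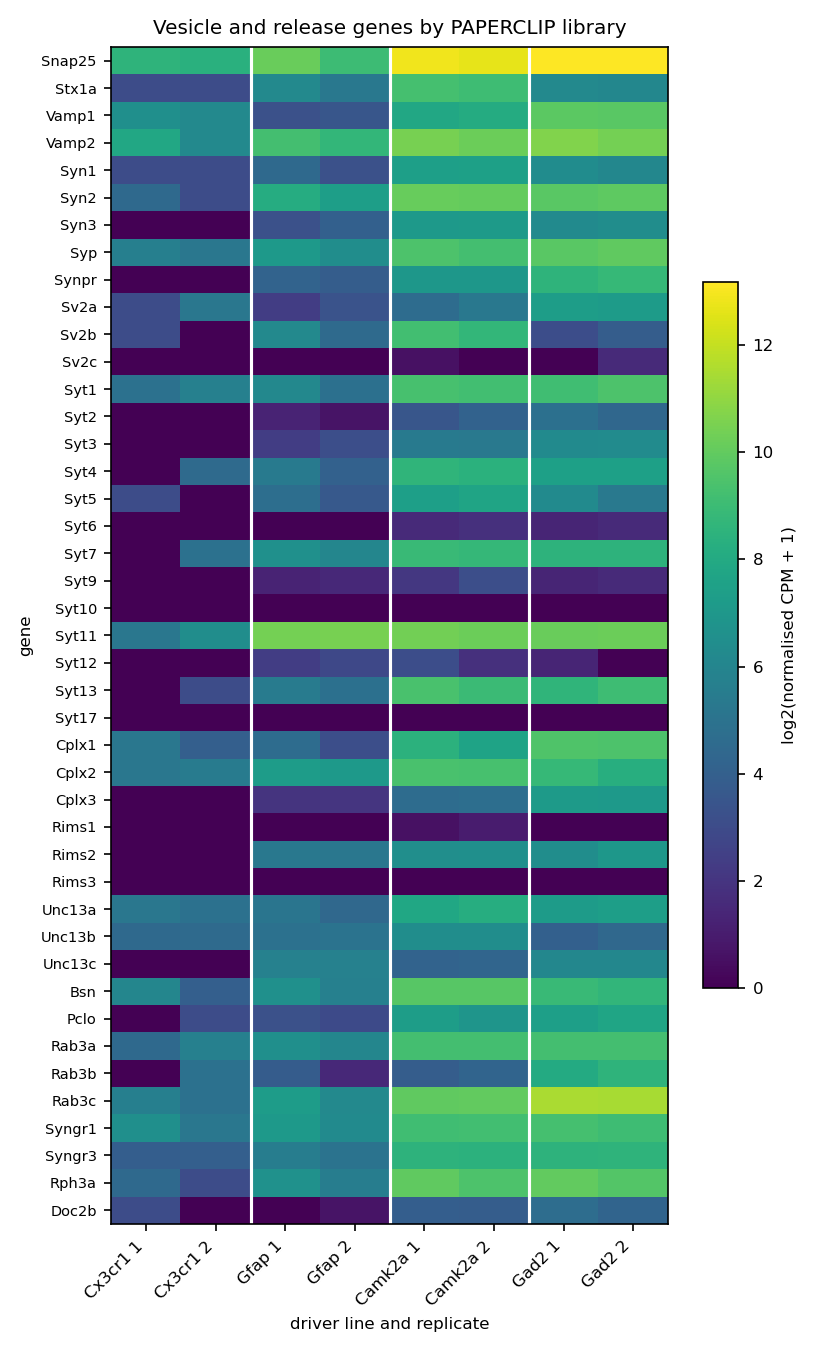
Levels of the 43 genes (rows) in the 8 untreated tagged libraries (columns), as colour on a log2(normalised CPM + 1) scale. Neuronal columns are bright for most genes, Syt11 is as bright in the Gfap columns, and the bottom of the scale (0) marks genes without counts, such as Rims3, Syt10 and Syt17.

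Camk2a libraries were set against Gad2 libraries to compare excitatory with inhibitory cortical neurons. Many members differed, in both directions: 10 were higher in the Camk2a libraries, 9 were lower and 16 did not pass the test. Of all genes tested, 21.2% were called, 11.6% higher and 9.6% lower. The median log2 difference over the tested members was −0.07, beside 0.03 over all genes tested, and the members ran between −4.34 and 5.47. Paralogs of the same family could lie on opposite sides of 0, as Sv2b and Sv2a, Unc13b and Unc13c, and Cplx2 and Cplx3 did. Of the 19 calls, 11 held under every alternative that tested the gene (Sv2b, Stx1a, Unc13b and Syt5 higher; Rab3b, Cplx3, Sv2a, Unc13c, Vamp1, Synpr and Rab3c lower), and the other 8 were lost under at least 1.

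The SV2 proteins, vesicle glycoproteins that also serve as entry sites for botulinum toxin, differed most. Sv2b (chr7:75114894-75309262) had 587 and 425 normalised CPM in Camk2a libraries and 7.69 and 13.8 in Gad2 libraries (log2 difference 5.47, SE 0.46, adjusted p = 5.47e-08). Sv2a (chr3:96181227-96195183) had 24.1 and 38.0 normalised CPM in Camk2a libraries and 161 and 149.8 in Gad2 libraries (log2 difference −2.32, SE 0.28, adjusted p = 5.28e-06). The groups were far apart for both genes and in opposite directions. Sv2b took 96.0% and 91.8% of SV2 family counts in Camk2a libraries and 4.55% and 8.33% in Gad2 libraries, and Sv2a took 3.95% and 8.21% and 95.5% and 90.5% of those counts in the same libraries. Sv2c, the remaining paralog, had 1 count over both Camk2a libraries and 2 over both Gad2 libraries.

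RefSeq promoter windows of GRCm38.p6, which run from 250 bases before to 50 after a transcription start, are printed for this pair because it differed most between the neuron classes. Sv2a has 1 window, chr3:96180977-96181276 on the plus strand, and Sv2b has 4, of which the farthest 5′ is chr7:75309213-75309512 on the minus strand. Sequences run 5′ to 3′ along the gene, with capitals for the GC box (GGGGCGGGG, found on the reverse strand) in Sv2a and the TATA box letters (TATAAA, on the reverse strand) in Sv2b.
Sv2a: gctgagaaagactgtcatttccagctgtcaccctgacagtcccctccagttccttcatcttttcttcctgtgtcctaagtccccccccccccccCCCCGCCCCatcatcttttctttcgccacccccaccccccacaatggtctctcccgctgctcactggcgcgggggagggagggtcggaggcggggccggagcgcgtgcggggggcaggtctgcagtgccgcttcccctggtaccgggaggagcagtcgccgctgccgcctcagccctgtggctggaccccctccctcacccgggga
Sv2b: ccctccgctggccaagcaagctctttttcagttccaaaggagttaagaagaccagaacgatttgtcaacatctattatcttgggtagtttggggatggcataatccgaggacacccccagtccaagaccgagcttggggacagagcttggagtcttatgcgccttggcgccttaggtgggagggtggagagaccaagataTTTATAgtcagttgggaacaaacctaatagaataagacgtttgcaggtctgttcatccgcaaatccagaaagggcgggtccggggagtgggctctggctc
Both strands were searched. GGGGCGGGG occurred in 11.4% of all 32851 RefSeq mouse windows and TATAAA in 13.6%, so neither match is rare, and PAPERCLIP does not show which start was in use.

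Among the fusion proteins, Stx1a, the plasma membrane syntaxin (chr5:135023482-135051100), had 626 and 536 normalised CPM in Camk2a libraries and 72.3 and 66.1 in Gad2 libraries (log2 difference 3.07, SE 0.28, adjusted p = 1.89e-07). The groups did not overlap, and Gad2 libraries were near the level of the first Gfap library. Synaptobrevin differed by paralog. Vamp1 (chr6:125215581-125222306) had 238 and 274 normalised CPM in Camk2a libraries and 907 and 892 in Gad2 libraries (log2 difference −1.81, SE 0.23, adjusted p = 1.13e-05). Vamp2 (chr11:69088528-69092381) had 1405 and 1183 in Camk2a libraries and 1605 and 1347 in Gad2 libraries, which overlapped (log2 difference −0.19, SE 0.32, adjusted p = 0.735). Vamp1 was thus lower in Camk2a libraries, while the Vamp2 difference was smaller than the spread between libraries. Snap25 did not pass the test either (log2 difference −0.37, SE 0.34, adjusted p = 0.507).

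The Rab3 proteins, small GTPases on the vesicle that recruit RIM and rabphilin, split in the same way. Rab3b (chr4:108879070-108943324) had 13.5 and 18.0 normalised CPM in Camk2a libraries and 259.9 and 379 in Gad2 libraries (log2 difference −4.34, SE 0.37, adjusted p = 7.11e-08). Rab3c had 985 and 1014 in Camk2a libraries and 2869 and 2807 in Gad2 libraries (log2 difference −1.51, SE 0.31, adjusted p = 0.00143). Rab3a had 594 and 601 in Camk2a libraries and 606 and 608 in Gad2 libraries (log2 difference −0.02, SE 0.25, adjusted p = 0.977). Levels of Rab3b and Rab3c were thus apart, with Rab3b at a small part of its Gad2 level, and those of Rab3a lay side by side. Rph3a, the rabphilin that binds Rab3, did not pass the test (−0.08, SE 0.30).

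Of the complexins, which clamp and promote the fusion complex, Cplx3 (chr9:57599992-57606281) had 24.1 and 25.5 normalised CPM in Camk2a libraries and 141.5 and 137 in Gad2 libraries (log2 difference −2.48, SE 0.25, adjusted p = 7.05e-07). Cplx1 had 344 and 198 in Camk2a libraries and 753 and 723 in Gad2 libraries (log2 difference −1.44, SE 0.31, adjusted p = 0.00179). Cplx2 had 673 and 653 in Camk2a libraries and 446 and 305 in Gad2 libraries (log2 difference 0.83, SE 0.25, adjusted p = 0.0204). Cplx1 and Cplx3 were lower in Camk2a libraries and Cplx2 higher. Without Camk2a replicate 2 the adjusted p of Cplx1 was 0.114, and Cplx2 missed the threshold without any of Gad2 replicate 2, Camk2a replicate 1 or Camk2a replicate 2 (adjusted p = 0.321, 0.163 and 0.138).

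Munc13 proteins prime vesicles for release. Unc13b (chr4:43046193-43264873) had 87.9 and 87.6 normalised CPM in Camk2a libraries and 15.4 and 20.7 in Gad2 libraries (log2 difference 2.24, SE 0.29, adjusted p = 1.03e-05). Unc13c (chr9:73479422-74008155) had 17.4 and 18.52 in Camk2a libraries and 66.1 and 68.0 in Gad2 libraries (log2 difference −1.90, SE 0.28, adjusted p = 5.81e-05). These paralogs moved in opposite directions with no overlap of groups. Unc13a, the main Munc13 of forebrain synapses, was higher by 0.73 (SE 0.23, adjusted p = 0.032), a call lost when any of the 4 neuronal libraries was left out (adjusted p = 0.0754 to 0.340). Of the large active zone scaffolds, Bsn (bassoon) was higher by 0.97 (SE 0.29, adjusted p = 0.0217), also lost without any neuronal library (adjusted p = 0.121 to 0.261), and Pclo (piccolo) did not pass (−0.49, SE 0.23). Rims2, which tethers calcium channels and vesicles, did not pass (−0.23, SE 0.23).

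Of the synaptotagmins tested, 2 were higher, 1 was lower and 5 did not pass. Syt5 had 173 and 206 normalised CPM in Camk2a libraries and 76.9 and 39.4 in Gad2 libraries (log2 difference 1.76, SE 0.31, adjusted p = 0.000286). Syt4 was higher by 1.02 (SE 0.29, adjusted p = 0.016) and Syt3 was lower, at −1.03 (SE 0.26, adjusted p = 0.00732). Syt5 kept clear groups, whereas Syt4 lost its call without any neuronal library (adjusted p = 0.0710 to 0.160) and Syt3 lost it without Gad2 replicate 2, Camk2a replicate 1 or Camk2a replicate 2 (adjusted p = 0.0999, 0.0913 and 0.106). Syt1, the fast calcium sensor of forebrain synapses, had 653 and 577 in Camk2a libraries and 564 and 727 in Gad2 libraries, which overlapped (log2 difference −0.07, SE 0.29, adjusted p = 0.913). Syt7, Syt11 and Syt13 lay between 0.08 and 0.36 and did not pass, nor did Syt2, a fast sensor at −0.77 (SE 0.41).

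Of the remaining vesicle proteins, Synpr (synaptoporin, a relative of synaptophysin) had 126 and 126 normalised CPM in Camk2a libraries and 377 and 456 in Gad2 libraries (log2 difference −1.73, SE 0.23, adjusted p = 1.81e-05). Synaptophysin, Syp, had 706 and 608 in Camk2a libraries and 893 and 1004 in Gad2 libraries, and did not pass the test (log2 difference −0.53, SE 0.26, adjusted p = 0.159), though it did without Cx3cr1 replicate 1 (−0.55, adjusted p = 0.0479). Synapsins tether vesicles to actin, and Syn1 had 173 and 176 in Camk2a libraries and 84.6 and 68.0 in Gad2 libraries (log2 difference 1.21, SE 0.26, adjusted p = 0.00183). Synpr was lower and Syn1 higher in Camk2a libraries, each with groups apart, though Syn1 missed the threshold without Gad2 replicate 2 (adjusted p = 0.0701). Syn3 was higher by 0.77 (SE 0.23, adjusted p = 0.0246), a call lost without any neuronal library (adjusted p = 0.126 to 0.203), and Syn2 did not pass (0.23, SE 0.28). The synaptogyrins Syngr1 (−0.03, SE 0.27) and Syngr3 (−0.05, SE 0.22) did not pass, nor did Doc2b (−0.58, SE 0.41).

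**Figure D2:**
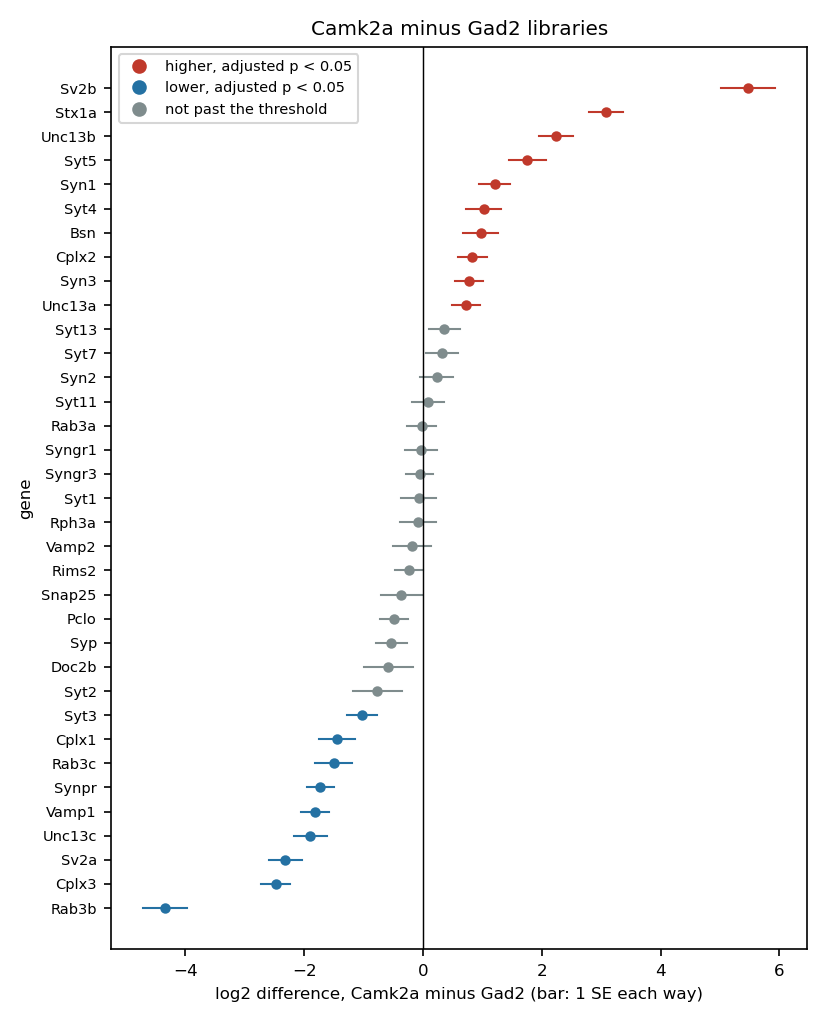
Log2 difference between Camk2a and Gad2 libraries for the 35 tested genes, with 1 SE each way and 2 libraries per group, coloured by edgeR call. Sv2b stands alone at 5.47 and Rab3b at −4.34, with 16 genes near 0 past no threshold.

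Shares of a family's counts describe paralog use without depending on the library total. PAPERCLIP reads come from mRNA 3′ ends, so counts were not divided by transcript length. With 2 libraries against 2, the exact permutation test (two-sided) cannot give a p below 0.333, which every share whose Camk2a and Gad2 libraries did not overlap reached, so shares are given as measured. Cplx2 took the largest share of complexin counts in Camk2a libraries, 64.6% and 74.5%, against 33.3% and 26.2% in Gad2 libraries. Cplx1 led in Gad2 libraries, at 33.1% and 22.5% in Camk2a libraries and 56.2% and 62.1% in Gad2 libraries. Cplx2 thus led in both Camk2a libraries and Cplx1 in both Gad2 libraries.

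Vamp2 was the larger part of synaptobrevin in both classes, at 85.5% and 81.2% in Camk2a libraries and 63.9% and 60.1% in Gad2 libraries. Rab3c led the Rab3 family in both, at 61.6% and 61.8% and 76.8% and 73.9%, with Rab3a at 37.1% and 36.6% in Camk2a libraries and 16.2% and 16.0% in Gad2 libraries. Unc13a led the Munc13 family in both, at 68.5% and 73.3% in Camk2a libraries and 64.2% and 65.3% in Gad2 libraries. The second place in that family was not the same: Unc13b held 26.3% and 22.0% in Camk2a libraries, and Unc13c held 29.1% and 26.6% in Gad2 libraries. Syn2 led the synapsins (77.4% ± 0.64 in Camk2a libraries and 85.3% ± 1.1 in Gad2 libraries, SD, n = 2 each), Syp the synaptophysins (83.8% ± 1.4 and 69.5% ± 1.1), Bsn the pair of scaffolds (86.2% ± 2.6 and 69.4% ± 5.4), Syngr1 the synaptogyrins (61.5% ± 1.3 and 61.2% ± 2.5) and Syt11 the synaptotagmins (34.6% ± 0.34 and 39.0% ± 2.0). Rims2 accounted for all RIM counts in Gad2 libraries and for all but 3 counts of Rims1 in Camk2a libraries. Rims1 and Rims3 were absent or nearly so from all PAPERCLIP counts, yet were well measured in the Ptbp2-KO cortex RNA-seq described below. RIM shares therefore describe PAPERCLIP counts only and may not give RIM use. Leadership by Syt11, a synaptotagmin that does not bind calcium, was therefore common to both neuron classes.

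**Figure D3:**
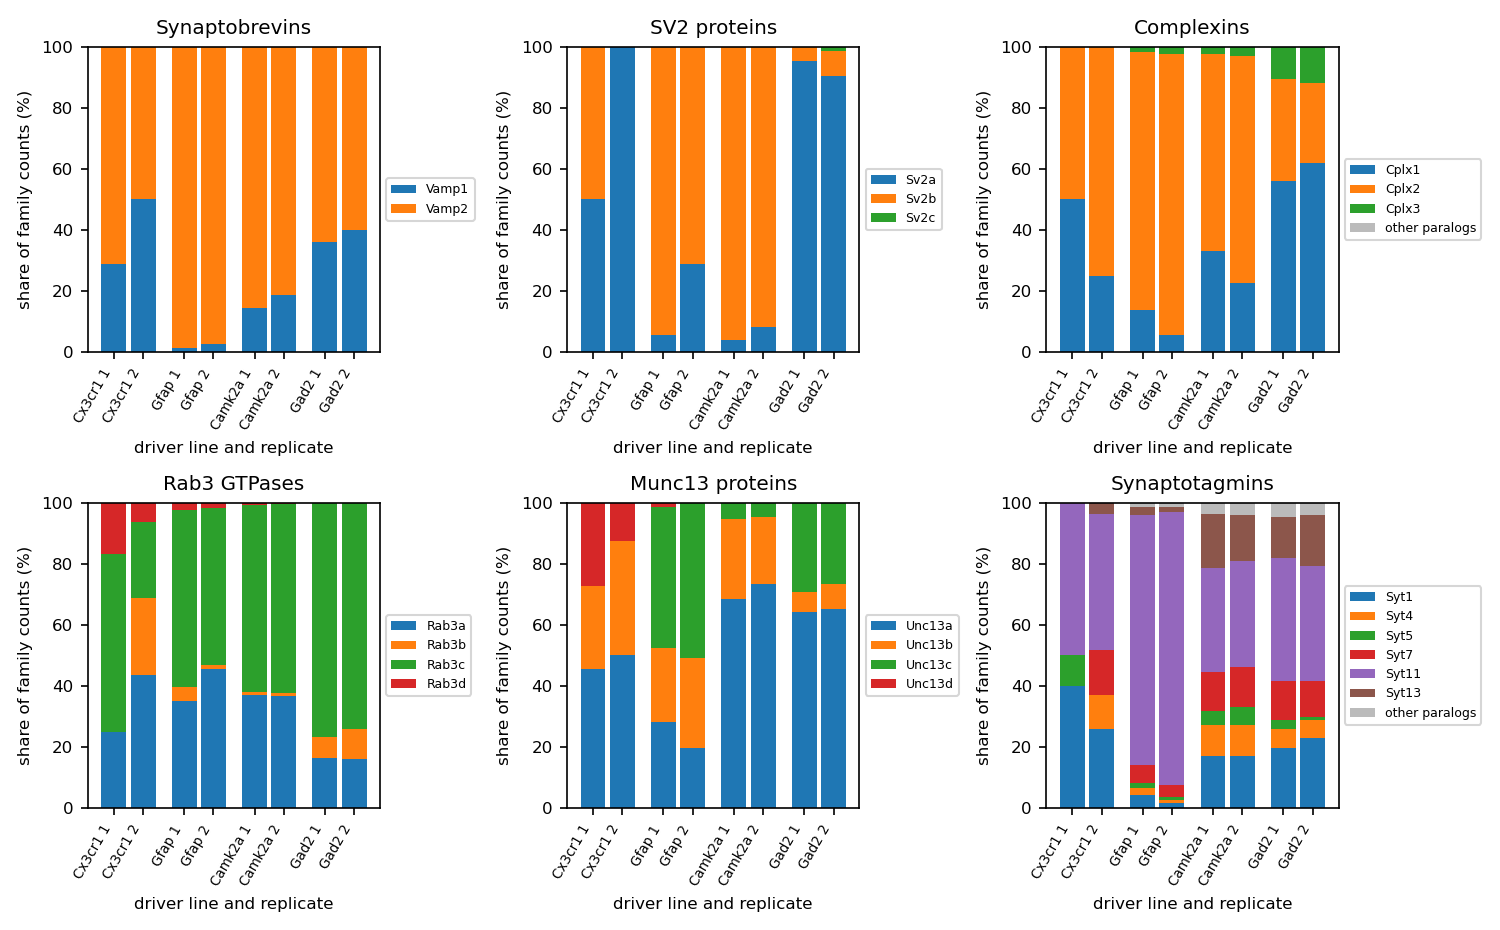
Share of family counts (%) taken by each paralog in each of the 8 untreated tagged libraries, for 6 families. SV2 counts are mostly Sv2b in Camk2a and Gfap libraries and mostly Sv2a in Gad2 libraries, Vamp1 grows in Gad2 libraries, and Cx3cr1 bars rest on 2 to 45 counts per family.

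Gfap libraries were set against the mean of Camk2a and Gad2 libraries to compare astrocytes with neurons. Most members were lower in Gfap libraries: 31 were lower, 1 was higher and 3 did not pass the test. Of all genes tested, 60.5% were called, 29.3% lower and 31.3% higher. The median over the tested members was −3.11, beside 0 over all genes. The lowest were Vamp1, Cplx1 and Doc2b. Vamp1 had 8.65 and 10.4 normalised CPM in Gfap libraries, below every neuronal library (log2 difference −5.59, SE 0.31, adjusted p = 2.03e-11). Cplx1 had 24.5 and 7.97 in Gfap libraries (log2 difference −5.00, SE 0.40, adjusted p = 2.98e-09). Doc2b, a soluble calcium sensor, had 0 and 1 counts in Gfap libraries and between 13.5 and 24.6 normalised CPM in neuronal ones (log2 difference −4.95, SE 0.76, adjusted p = 1.50e-05). None of these groups overlapped.

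The members of the fusion core fell by unequal amounts. Snap25 fell by 3.27 on the log2 scale (SE 0.36, adjusted p = 1.9e-07), Stx1a by 1.94 (SE 0.27, adjusted p = 4.52e-06) and Vamp2 by 1.45 (SE 0.30, adjusted p = 0.000311). Vamp2 had 593 and 419 normalised CPM in Gfap libraries, so it took 98.6% and 97.6% of synaptobrevin counts there, against 85.5% and 81.2% in Camk2a libraries and 63.9% and 60.1% in Gad2 libraries. Cplx2, with a log2 difference of −1.82 (SE 0.24), likewise took 84.7% and 92.3% of complexin counts in Gfap libraries. For these values the pan-neuronal markers given above moved with the groups, at 0.0873% and 0.0771% of counts in Gfap libraries and 0.370% to 0.482% in neuronal ones (9 of 10 markers had counts in each Gfap library and all 10 in each neuronal one), and their part in the result was not tested.

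Syt11 did not pass the test. It had 1366 and 1424 normalised CPM in Gfap libraries, 1306 and 1176 in Camk2a libraries and 1152 and 1189 in Gad2 libraries (log2 difference 0.21, SE 0.23, adjusted p = 0.457). Both Gfap libraries were above all 4 neuronal ones, by a margin that did not pass the test. The calcium-binding Syt1 had 69.2 and 27.6 in Gfap libraries, far below its neuronal levels (log2 difference −3.81, SE 0.34, adjusted p = 1.23e-08). Syt11 took 81.8% and 89.4% of synaptotagmin counts in Gfap libraries, and Syt1 took 4.15% and 1.73%.

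The Munc13 paralogs also stood apart. Unc13c had 54.8 and 54.0 normalised CPM in Gfap libraries, above both Camk2a libraries and below both Gad2 libraries (log2 difference 0.64, SE 0.23, adjusted p = 0.0226). Its call as higher rests on the average of unlike neuron classes, and it was lost under 9 of the 15 alternatives that tested it, among them each of the 6 fits without a Gfap, Gad2 or Camk2a library (adjusted p = 0.0553 to 0.122). Unc13b had 28.8 and 31.3 in Gfap libraries, between the Gad2 and Camk2a levels (log2 difference −0.41, SE 0.26, adjusted p = 0.187). Unc13a had 33.2 and 20.9 in Gfap libraries, below all neuronal libraries (log2 difference −2.98, SE 0.27, adjusted p = 1.51e-08). Unc13c therefore led the family in Gfap libraries, at 46.3% and 50.9%, against 5.21% and 4.65% in Camk2a libraries and 29.1% and 26.6% in Gad2 libraries; the smallest p the exact permutation test (two-sided) allows for 2 against 4 libraries is 0.133, and the shares did not overlap.

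Sv2b had 72.1 and 22.7 normalised CPM in Gfap libraries, below both Camk2a libraries and above both Gad2 libraries (log2 difference −0.84, SE 0.41, adjusted p = 0.0898). The Gfap libraries differed from each other here, and without Gfap replicate 1 the difference was −1.75 (adjusted p = 0.00182). The excitatory neuron markers were also higher in that replicate, at 0.0263% and 0.0127% of counts in Gfap replicates 1 and 2, 0.300% and 0.277% in Camk2a libraries and 0.00920% and 0.00831% in Gad2 libraries, and their part in the Sv2b level was not tested. Among the remaining members the log2 differences lay between −1.44 (Rims2) and −4.44 (Pclo), with the synapsins at −2.17 to −3.13, Syp at −2.86, Synpr at −3.94, Syngr1 at −2.48, Syngr3 at −3.28 and the Rab3 genes at −2.96 to −3.93.

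**Figure D4:**
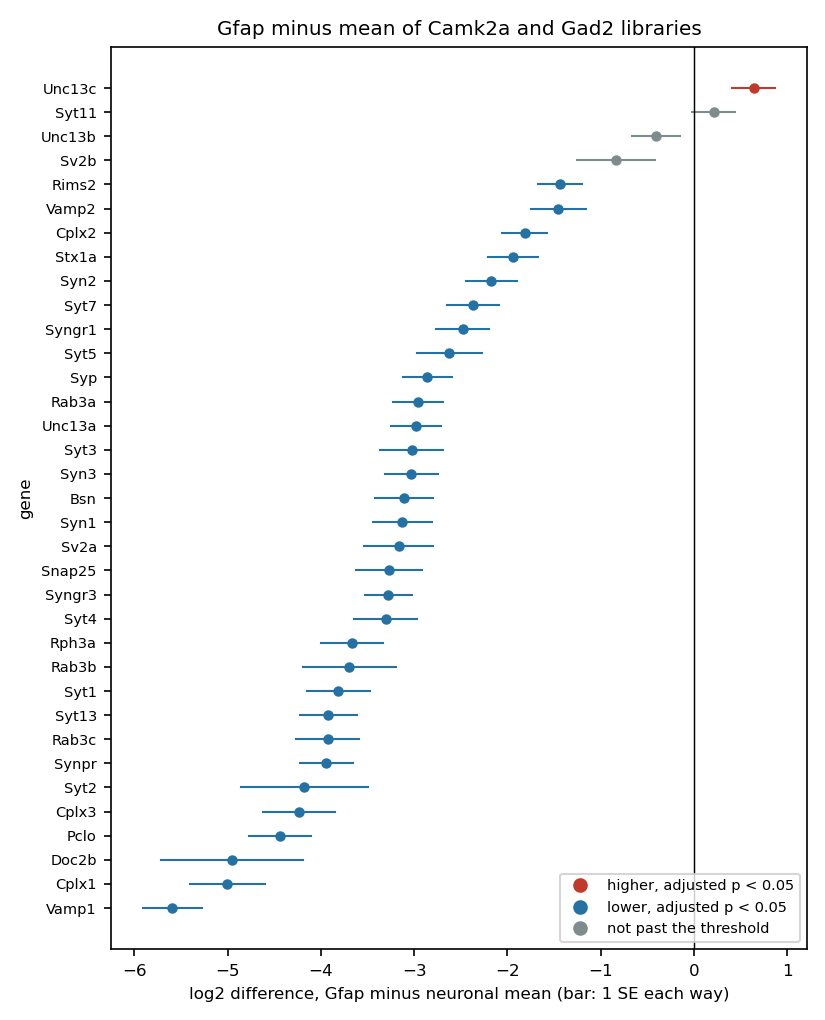
Log2 difference between Gfap libraries and the mean of Camk2a and Gad2 libraries for the 35 tested genes, with 1 SE each way (2 Gfap and 4 neuronal libraries), coloured by edgeR call. Unc13c, Syt11, Unc13b and Sv2b lie at the top, and 31 genes lie at or below −1.44.

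Since most members fell together in Gfap libraries, RefSeq promoter windows of the members were searched for the element of REST, a repressor known to silence neuronal genes outside neurons. A window was found for 31 members (43 windows in all), and 12 had none. The letters TTCAGCACC (left part of the element) occurred in Syn1 and Unc13a, which is 2 of 43 windows beside 0.371% of all 32851 windows. GGACAGCGC (right part) occurred in Unc13a (0.405% of all windows), and CACGGACAG, which spans the join of both in the full element and overlaps each, in Rph3a and Unc13a (0.164%). The cAMP response element TGACGTCA occurred in Syn1 (1.79%), and the GC box GGGGCGGGG in 14 members (16 of 43 windows, 37.2%, beside 11.4% of all windows). Both strands were searched. The windows of the 3 genes with REST letters are shown with every searched motif in capitals, 5′ to 3′ along the gene; all 3 lie on the minus strand, Syn1 at chrX:20920869-20921168, Unc13a at chr8:71671708-71672007 and Rph3a at chr5:121009489-121009788.
Syn1: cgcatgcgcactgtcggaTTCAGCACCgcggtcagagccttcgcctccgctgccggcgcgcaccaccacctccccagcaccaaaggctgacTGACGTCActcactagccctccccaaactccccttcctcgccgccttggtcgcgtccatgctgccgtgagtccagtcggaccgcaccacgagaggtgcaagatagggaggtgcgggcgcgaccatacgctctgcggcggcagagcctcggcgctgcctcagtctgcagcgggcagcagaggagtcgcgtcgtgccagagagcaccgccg
Unc13a: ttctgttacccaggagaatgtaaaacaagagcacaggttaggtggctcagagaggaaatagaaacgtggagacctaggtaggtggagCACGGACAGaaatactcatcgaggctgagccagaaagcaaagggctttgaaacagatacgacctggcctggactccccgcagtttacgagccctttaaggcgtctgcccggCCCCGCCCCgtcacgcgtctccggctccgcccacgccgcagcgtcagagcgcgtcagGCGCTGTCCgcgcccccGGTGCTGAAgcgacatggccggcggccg
Rph3a: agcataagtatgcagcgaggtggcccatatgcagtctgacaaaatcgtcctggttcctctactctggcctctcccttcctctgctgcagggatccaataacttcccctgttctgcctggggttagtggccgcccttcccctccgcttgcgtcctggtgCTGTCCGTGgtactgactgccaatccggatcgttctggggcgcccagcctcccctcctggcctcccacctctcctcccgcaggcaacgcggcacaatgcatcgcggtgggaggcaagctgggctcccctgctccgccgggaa
In Unc13a the left and right parts and the GC box stand on the reverse strand, the parts separated by a run of lower-case letters, and the middle letters stand apart on the forward strand. In Rph3a the match is on the reverse strand. Syn1 and Unc13a have 1 window each and Rph3a has 3, of which only the 1 with the match is printed. That window lies inside the span of Rph3a, chr5:120940499-121010116. Against neuronal libraries, Gfap libraries differed by −3.13 for Syn1 (SE 0.31), −2.98 for Unc13a (SE 0.27) and −3.67 for Rph3a (SE 0.33), near the member median of −3.11. A match is a description of letters; binding was not measured.

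Untreated Cx3cr1 libraries were set against the mean of the Gfap, Camk2a and Gad2 libraries to compare microglia with the cortical cell types. No member was higher, 29 were lower and 6 did not pass the test. All 35 log2 differences were below 0 in edgeR, so none was higher at an unadjusted p of 0.05, and DESeq2 called 0 higher. Of all genes tested, 49.8% were called, 28.0% lower and 21.8% higher. The median over the tested members was −3.53, beside −0.48 over all genes, and −2.91 with genes that had no count set at a bound. The all-gene median was −0.90 without Cx3cr1 replicate 1, −0.24 in thinned libraries and −0.79 with no filter on low counts. The Cx3cr1 libraries came from whole brain and the others from cortex, so tissue and cell type cannot be told apart here.

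Both Cx3cr1 libraries lacked counts for 15 members (Syn3, Synpr, Sv2c, Syt2, Syt3, Syt6, Syt9, Syt10, Syt12, Syt17, Cplx3, Rims1, Rims2, Rims3 and Unc13c), so their fitted differences are not sizes. A bound against 3 counts over the group, 11.0 normalised CPM, is given instead, and it covers counting error only. Synpr, the member with the lowest fitted difference, was at least 11.5-fold lower in Cx3cr1 than in Camk2a libraries and at least 38.0-fold lower than in Gad2 libraries. Rims2 was at least 3.36-fold, 8.37-fold and 9.72-fold lower than in Gfap, Camk2a and Gad2 libraries. Syn3 was at least 12.8-fold lower than in Camk2a libraries and at least 7.49-fold lower than in Gad2 libraries. The other members without counts had cortical levels too low for a bound of that size, apart from Cplx3 and Syt3 against Gad2 libraries (at least 12.7-fold and 7.31-fold lower) and Unc13c (at least 4.97-fold lower than in Gfap and 6.12-fold lower than in Gad2 libraries).

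Members with counts in Cx3cr1 libraries included Snap25, Vamp2 and Syngr1. Snap25 was lower than in cortical libraries (log2 difference −3.42, SE 0.37, adjusted p = 3.80e-07), yet at 378 and 323 normalised CPM it was the highest member there. Vamp2 had 233 and 73.4, with Cx3cr1 libraries far from each other and below every cortical one (log2 difference −2.69, SE 0.37, adjusted p = 6.65e-06). Vamp1 had 94.5 and 73.4 in Cx3cr1 libraries, above both Gfap libraries and below all neuronal ones (log2 difference −0.65, SE 0.33, adjusted p = 0.115). Syt11, so abundant in astrocytes and neurons, was at 36.3 and 88.1 (log2 difference −4.35, SE 0.37, adjusted p = 1.38e-08), and the groups did not overlap. Besides Vamp1, the members that did not pass were Sv2a, Syt2, Unc13b, Rab3b and Doc2b, each with 0 to 5 counts per Cx3cr1 library. Inhibitory neuron markers took 0.0123% and 0.0120% of counts in untreated Cx3cr1 libraries (19 and 16 counts), beside 0.888% and 0.787% in Gad2 libraries. They took 0.00868% and 0.0107% in Camk2a libraries and 0.00350% and 0.00737% in Gfap libraries. Excitatory neuron markers took 0.00452% and 0.00150% in untreated Cx3cr1 libraries (7 and 2 counts). The part of either set in these levels was not tested. Vamp1 passed under a filter at 5 CPM (−0.78, adjusted p = 0.0478). Sv2b and Syt5, with 1 count over both libraries, passed with both and not without Cx3cr1 replicate 2 (adjusted p = 0.0816 and 0.0530).

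Paralog shares in Cx3cr1 libraries rest on few counts. Vamp1 took 28.9% of 45 synaptobrevin counts (95% Clopper-Pearson interval 16.4% to 44.3%) in replicate 1 and 10 of 20 (27.2% to 72.8%) in replicate 2. Syngr2, a paralog outside the list that is found in many tissues, took 40.0% of 25 synaptogyrin counts (21.1% to 61.3%) and 58.8% of 17 (32.9% to 81.6%), and Syngr1 took 52.0% (31.3% to 72.2%) and 29.4% (10.3% to 56.0%). Syngr2 had no count in neuronal libraries. The leading share in the SV2, complexin, synaptotagmin, Rab3 and Munc13 families rested on 1 to 12 counts, and its interval overlapped that of the next paralog.

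Isolated microglia gave a separate view of the same genes, on another assay. Snap25 was at 0.652, 0.469 and 0.800 CPM in isolated microglia after LPS and 0.990, 1.59 and 1.14 after PBS (CPM of the whole library). In tagged Cx3cr1 brain it was at 330.4, 296 and 436 CPM after LPS, 442, 353 and 2333 after PBS and 336 and 329.7 untreated. In the liver library it was at 181 CPM (21 counts). Snap25 was thus near 0 in isolated microglia, while every tagged Cx3cr1 library and the liver library held it. Rab3c, with 45.2 and 30.0 CPM in untreated Cx3cr1 libraries, had no count in 5 of the 6 isolated microglia libraries and 1 count in the other, and none in liver. Pan-neuronal markers took 0.0129% and 0.0195% of counts in untreated Cx3cr1 libraries and, in isolated microglia, 0.00143% to 0.00192% after LPS and 0.00282% to 0.00331% after PBS, and their part in these levels was not tested. Microglial markers took 5.27% and 4.16% in untreated Cx3cr1 libraries and 2.93% to 3.99% in isolated microglia.

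Other members were present in isolated microglia. Syngr1 had 134, 108 and 122 CPM after LPS and 127, 142 and 131 after PBS. Vamp2 had 48.9, 56.2 and 49.6 after LPS and 50.5, 49.4 and 59.4 after PBS, and Syt11 had 26.1, 36.1 and 23.2 after LPS and 37.1, 45.5 and 43.4 after PBS. For Syngr1 and Vamp2 the LPS and PBS libraries overlapped, and for Syt11 all 3 LPS libraries were below all 3 PBS ones; no test of LPS was made on these levels. The pan-neuronal marker sums just given were likewise lower in all 3 LPS libraries than in all 3 PBS ones. So were the microglial marker sums (2.93% to 3.45% after LPS, 3.98% to 3.99% after PBS), while the inhibitory neuron sums overlapped. The part of these markers in the Syt11 levels was not tested. Vamp1 (19.6 to 32.5 CPM over all 6 libraries), Sv2a (19.2 to 24.4) and Unc13b (13.0 to 25.5) were also present. Synpr, Syt4, Cplx3, Rims2, Rab3b and Doc2b had no count in any PBS library of isolated microglia. After LPS the members without a count were Syn3, Sv2c, Syt1, Syt2, Syt4, Syt10, Cplx3, Rab3b, Rab3c and Doc2b. Synpr and Rims2 thus had counts after LPS. RNA-seq reads cover the transcript and PAPERCLIP reads its 3′ end, so CPM of the assays are side by side and not compared.

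**Figure D5:**
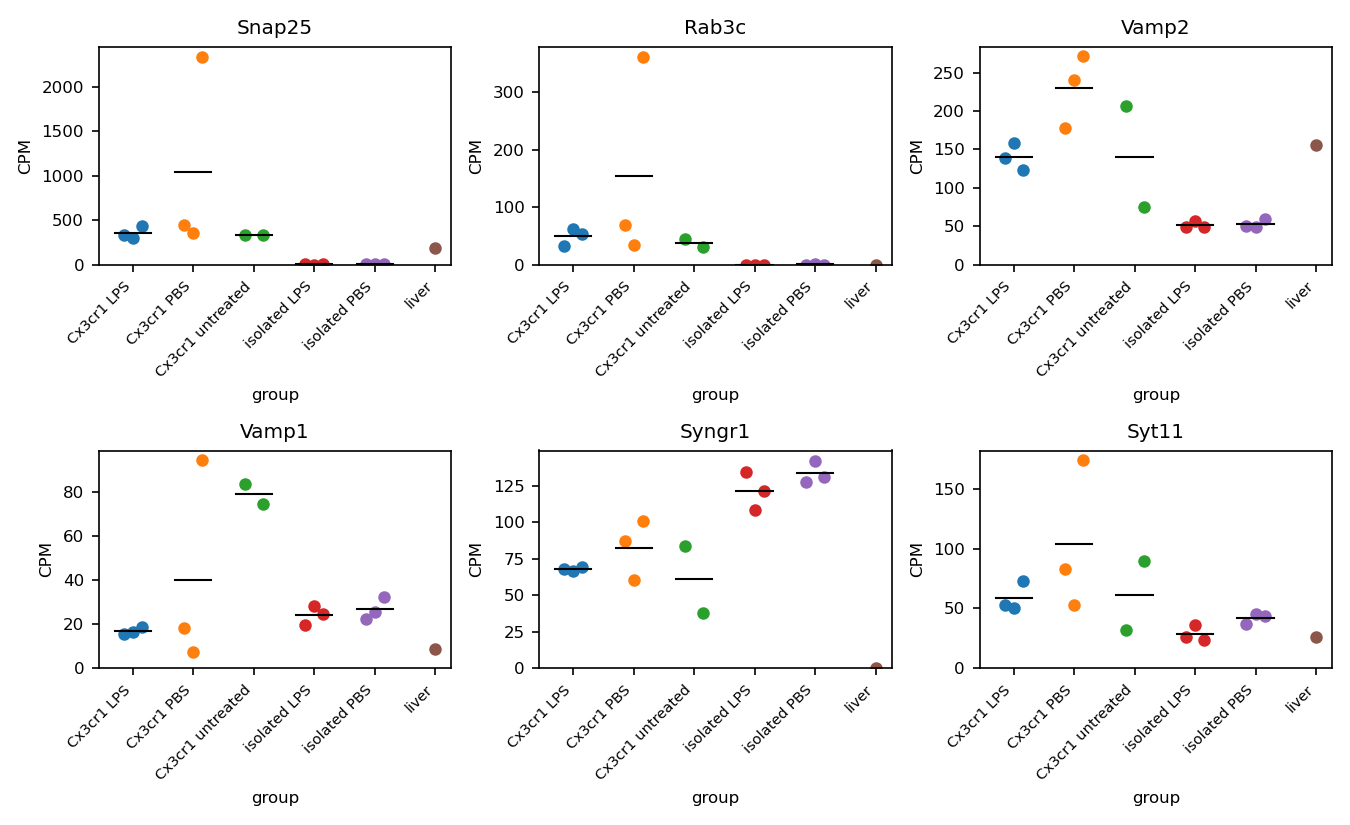
Plain CPM of 6 genes in tagged Cx3cr1 brain, isolated microglia and liver, each point a library and each line a group mean (1 liver library). Snap25 and Rab3c lie near 0 in isolated microglia and reach 2333 and 361 CPM in Cx3cr1 PBS replicate 3, while Syngr1 lies at 108 to 142 CPM in isolated microglia.

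Cx3cr1 PBS replicate 3 stood apart. It held 2333 CPM of Snap25 against 442 and 353 in the other PBS libraries, and the 43 members took 0.464% of its counts against 0.117% and 0.103% in the others. All 10 pan-neuronal markers had counts there and took 0.0870% of the total, against at most 0.0225% in the other PBS, LPS and untreated Cx3cr1 libraries, and the 5 hepatocyte markers took 0.186% against at most 0.00368%. The part of neuronal or liver mRNA in the levels of that library was not tested, and none of the 3 tests above uses it.

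In embryonic Ptbp2-KO cortex, measured by ribosome-depleted RNA-seq, all 43 members had counts and together took 3195 ± 272 CPM (SD, n = 3). The members Rims3, Syt17 and Syt10, which had no count in any of the 15 PAPERCLIP libraries, were present. Rims3 was at 86.6, 91.1 and 69.0 CPM, Syt17 at 5.60, 4.34 and 1.80 and Syt10 at 2.39, 3.21 and 2.57. Rims1, with 3 counts over all PAPERCLIP libraries, had 68.9, 73.4 and 65.6 CPM. Rims3 and Rims1 were thus well measured in this cortex and absent or nearly so from the PAPERCLIP counts, and assay, age and genotype differ together here and cannot be told apart. Cplx3 had 0.111, 0.219 and 0.360 CPM, and Syt4 had 436, 415 and 531. Without a control cortex and without transcript lengths, neither an effect of the knockout nor an order of levels between genes is given.

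Other genes of the vesicle cycle, 67 in number with 55 tested, show how far the pattern reached. In Camk2a against Gad2 libraries 14 were higher and 6 lower, with a median of 0.27. These were 25.5% and 10.9%, beside 11.6% and 9.6% of all genes tested. The extremes were the transmitter transporters that define the classes, Slc17a6 (5.12, SE 0.59) and Slc17a7 (4.64, SE 0.41), which load glutamate, and Slc32a1 (−7.37, SE 0.38), which loads GABA; among the genes called lower, Rab27b, a secretory GTPase, came next at −1.55 (SE 0.28). Slc17a7 had 529 and 409 normalised CPM in Camk2a libraries and 21.5 and 16.8 in Gad2 libraries, and Slc32a1 had 6.76 and 5.51 in Camk2a libraries and 1333 and 745 in Gad2 libraries.

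In Gfap libraries 36 of the 55 were lower than in neurons and 11 higher, with a median of −2.44. The lowest were Stxbp5l (−5.00, SE 0.36), a tomosyn that restrains fusion, and Slc32a1 (−4.49, SE 0.48). Those that were higher included fusion proteins of general secretion. Vamp8 had 57.7 and 46.0 normalised CPM in Gfap libraries, 0.483 and 0 in Camk2a libraries and 1.54 and 0.986 in Gad2 libraries (log2 difference 6.19, SE 0.55, adjusted p = 1.31e-08). Syngr2 had 1.44 and 9.20 in Gfap libraries and no count in either neuronal group, at least 7.22-fold lower in Camk2a libraries by 3 counts over the group.

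In Cx3cr1 libraries 28 of the 55 were lower than in the cortical libraries (50.9%, beside 28.0% of all genes tested). Another 10 were higher in Cx3cr1 libraries (18.2%, beside 21.8%), and the median was −1.53 (−1.07 with bounds). Vamp8 had 421 and 161 normalised CPM there (log2 difference 6.65, SE 0.45, adjusted p = 4.99e-10), and Syngr2 had 72.7 and 73.4, with Camk2a libraries at least 99.0-fold and Gad2 libraries at least 40.5-fold lower. Nrxn3, a presynaptic adhesion protein, had no Cx3cr1 count and lay at least 38.1-fold lower than in Camk2a and 63.2-fold lower than in Gad2 libraries. Sh3gl3, an endophilin of vesicle recycling, also had none and was at least 7.68-fold lower than in Gfap libraries. The members had no gene called higher in Cx3cr1 libraries and 1 in Gfap libraries. The wider list held 10 and 11, in both cases a smaller share than among all genes tested.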

How the data were processed

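The values deposited by the authors are raw counts, 1 whole number for every gene and library. The submitters' processing notes name cutadapt and Novoalign for PAPERCLIP reads and STAR for RNA-seq reads, on build mm10, and state no versions. Per the labels' protocols, PAPERCLIP linkers carry a 7-base random barcode, and the Ptbp2-KO cortex was depleted of ribosomal RNA. The collapse of duplicates, the rule that gave reads to genes and any use of strand were not given in the sources used here, so counts of members that overlap another gene are uncertain. The counts do not resolve single polyadenylation sites.

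Groups follow the sample titles. The 43 members and the list of other vesicle genes were chosen with earlier results of these data known. The 8 untreated tagged libraries were fitted together with edgeR 4.0.16 (R 4.3.3; filterByExpr, TMM, quasi-likelihood test, Benjamini-Hochberg over 9421 genes, threshold 0.05). The SE of a log2 difference was taken from the F statistic. Plain CPM, used for the other libraries, divide by the library total; those totals were 266330 to 1041245 counts in LPS and PBS Cx3cr1 libraries, 115734 in liver, 1250170 to 2133407 in isolated microglia and 19446610 to 27415288 in the knockout cortex. Shares carry 95% Clopper-Pearson intervals where counts are few, and intervals and bounds cover counting error only. A chi-square test between replicates of a group gave 2.70 to 6.10 per degree of freedom in the 8 untreated tagged libraries. Each pair thus differed by more than counting error. The test cannot tell separate animals from repeat libraries of the same animal. The genes given in full are the 3 members with the largest difference in each direction of each comparison, the leading paralogs, members without counts, driver genes, and the 2 other genes with the largest difference; the rest are named in groups. Names shown beyond that rule were chosen after their values were seen. The fit was tested on simulated counts. Alternatives were other scalings, DESeq2 1.42.0, other filters, a replicate block, all 14 tagged brain libraries, thinned libraries and leaving out each library.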

Additional observations from a re-analysis of the deposited data

Results flagged for a closer look

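The members were also counted in libraries that no test above uses, and signal was present in each of them. Summed over the 43 genes, tagged Cx3cr1 brain held 884, 953 and 1064 CPM after LPS and 1171, 1025 and 4639 CPM after PBS. Isolated microglia held 336, 358 and 334 CPM after LPS and 364, 419 and 406 CPM after PBS. The liver library held 639 CPM. The Cx3cr1 PBS value of 4639 belongs to replicate 3, the library described above as standing apart. In isolated microglia all 3 LPS sums were below all 3 PBS sums, a difference that was not tested. Pan-neuronal and excitatory neuron markers separated the same way there. The 10 pan-neuronal markers took 0.00143% to 0.00192% of counts after LPS and 0.00282% to 0.00331% after PBS (1 to 3 and 2 to 5 of them at 0). The 8 excitatory neuron markers took 0.000422% to 0.00112% after LPS and 0.00153% to 0.00255% after PBS (5 to 6 and 3 to 6 at 0). The 10 inhibitory neuron markers overlapped, at 0 to 0.000240% after LPS and 5.71e-05% to 0.000159% after PBS. Microglial markers were also lower in all 3 LPS libraries, at 2.93% to 3.45% after LPS and 3.98% to 3.99% after PBS. The part of these markers in the sums was not tested.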

How the results depend on the processing

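No called difference of the 35 tested members changed sign under the alternatives computed. Camk2a against Gad2 libraries was the least stable comparison: 10 members were called higher as reported, 5 with all 14 tagged brain libraries fitted, 4 when every library was thinned to 133456 counts, and 4 to 10 when each library was left out in turn. Leaving out a library left its group with only 1, assumed to vary like the others. The fit of all 14 tagged brain libraries includes Cx3cr1 PBS replicate 3, described above as standing apart. The part of that library in the counts from that fit was not tested. Thinning also cut the wider list to 5 higher and 1 lower (8 to 17 and 2 to 10 without each library in turn) and all genes called to 538 (1026 to 2650). For Gfap against neurons the count of members higher was 0 with total counts only, DESeq2, no filter, or thinned libraries, and 0 to 1 without each library, thinning left 7 genes of the wider list higher and 2307 of all genes called, and total counts moved the median of all genes to −0.21. For Cx3cr1 libraries thinning left 18 genes of the wider list lower and 2787 of all genes called. Thinning tested fewer genes, 4629 in place of 9421. Rims2 and Rab3b (Gfap) and Cplx3 (Cx3cr1) lost their calls when thinned (adjusted p = 0.211, 0.0613 and 1.00). Sv2b gained a call in Gfap libraries with total counts, no filter or the replicate block (adjusted p = 0.0212, 0.0215 and 0.0210).

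Replicates with the same number did not deviate together (r = 0.00763 to 0.0836 between groups), so the numbers were not taken to pair libraries. A fit with the replicate number as a block called 2101, 5722 and 4709 genes for the Camk2a, Gfap and Cx3cr1 comparisons, beside 2001, 5702 and 4687 without it, and 10, 1 and 0 members higher. Levels per transcript length were not run, since no lengths were at hand. Depth limits the Cx3cr1 comparison: no count over both libraries still allows up to 11.0 normalised CPM.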
